A study of Mus musculus with 10 samples.

Results

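The SALL zinc finger family of the mouse has 4 protein-coding members, Sall1, Sall2, Sall3 and Sall4, and TET2 occupancy was described at these genes, out of 21887 protein-coding genes in the gene table used here. A deposited peak was taken as a member's peak where it overlapped the gene span, or where it lay within 50 kb and no other protein-coding span was nearer. Peaks of the 8 lists that shared at least 1 bp were merged, and 47 of the 79350 merged regions belonged to the family. The cells were mouse embryonic stem (ES) cells kept in serum with LIF and with inhibitors of GSK-3 (CHIR99021) and MEK (PD0325901). Wild-type cells (Tet2fl/fl, no tag) and knockout cells (Tet2-/-, no tag) were precipitated with a rabbit antibody raised to an N-terminal stretch of TET2. FLAG-TET2 cells (Tet2fl/fl, TET2 with a 2x-Flag tag at its own locus) and parental cells (Tet2fl/fl, no tag) were precipitated with FLAG M2 affinity gel. Each group had 2 libraries with 1 peak list each, and pairs of values are given as replicate 1, then replicate 2. The wild-type and FLAG-TET2 lists are named target lists, and the knockout and parental lists, from cells without the epitope, control lists. The labels state neither whether a line was a single clone nor whether replicates were separate cultures, so p-values measure a spread between libraries that may be technical. Peak lists carry no RNA level, so the ES cell label was not checked against expression markers. Sequencing depth was unknown.

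SALL proteins are transcription factors related to Drosophila spalt. They bind DNA through pairs of C2H2 zinc fingers and recruit the NuRD chromatin remodelling and deacetylase complex through a short N-terminal motif. In mouse ES cells SALL4 acts with OCT4, SOX2 and NANOG in self-renewal, and its long isoform has been described to favour hydroxymethylated DNA and to associate with TET proteins. TET2 oxidises methylated cytosine to hydroxymethylcytosine and further products.

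By replicate number, which the labels do not say pairs libraries, each target list held more peaks near the SALL genes than its control. Wild-type replicates 1 and 2 held 30 and 24 such peaks, against 1 and 6 in knockout replicates 1 and 2. FLAG-TET2 replicates 1 and 2 held 42 and 17, against 17 and 8 in parental replicates 1 and 2. With the TET2 antibody the groups did not overlap, whereas FLAG-TET2 replicate 2 and parental replicate 1 held the same number. On the log2(number + 1) scale the target lists exceeded the control lists by 2.01 (two-sided exact permutation test within antibody, p = 0.111, n = 4 and 4 lists, smallest possible p 0.0556). This was a 4.03-fold difference in geometric means on that scale. The arms gave log2 differences of 2.90 with the antibody and 1.13 with the FLAG resin, and the difference between the arms had an exact permutation p of 0.556. Single lists moved the arms: the antibody difference was 1.99 without knockout replicate 1 and 3.80 without knockout replicate 2, and the FLAG difference was 0.50 without FLAG-TET2 replicate 1, 0.628 without parental replicate 2, 1.63 without parental replicate 1 and 1.76 without FLAG-TET2 replicate 2.

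Whole lists differed in length in the same direction, so the number was also set against it. With every list shortened to its 2259 strongest peaks, 3 and 4 remained near SALL genes in wild-type replicates, against 1 and 1 in knockout replicates, and 0 in each FLAG-TET2 list, against 0 in each parental list. The log2 difference was then 0.58 over both arms (exact permutation test, p = 0.333) and 0 in the FLAG arm. Peaks near SALL genes made up 0.0778% (exact 95% binomial interval 0.0525 to 0.111%) and 0.128% (0.0817 to 0.190%) of wild-type replicates 1 and 2. They made up 0.0443% (0.00112 to 0.246%) and 0.0513% (0.0188 to 0.112%) of knockout replicates 1 and 2. The shares were 0.0661% and 0.0602% in FLAG-TET2 replicates, against 0.0466% and 0.0790% in parental replicates 1 and 2. The antibody shares were thus higher in both wild-type lists than in both knockout lists, while the FLAG shares overlapped between groups. Over both arms the share was 0.0276 percentage points higher in target lists (exact permutation test, p = 0.167), and it was 0.0152 points higher without wild-type replicate 2. The intervals cover counting of peaks only.

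**Figure D1:**
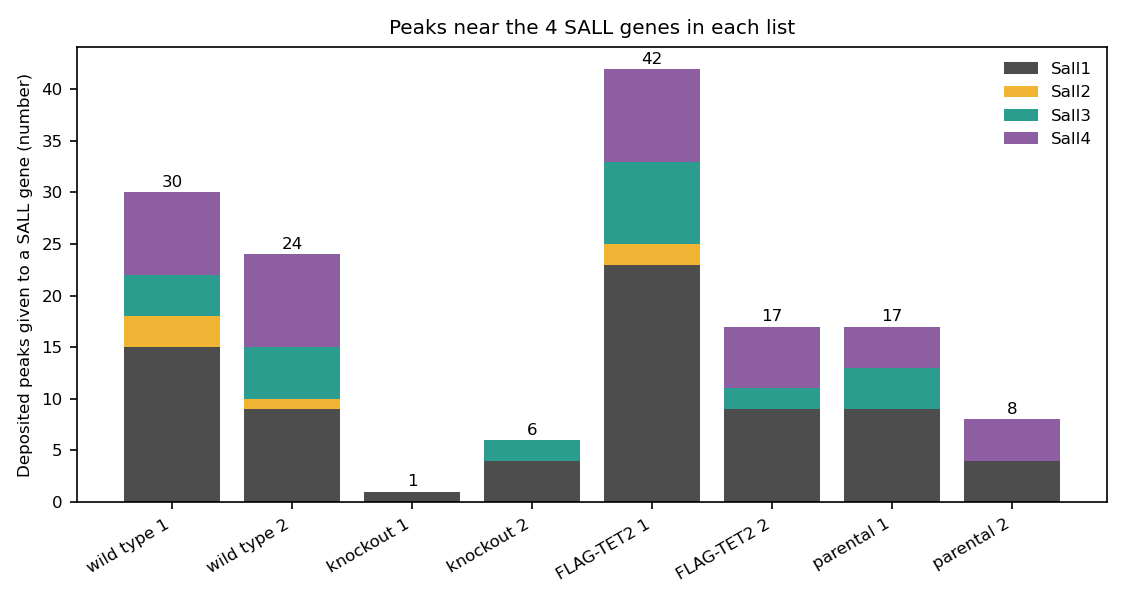
Number of deposited peaks given to each SALL gene (stacked colours, y axis) in each of the 8 lists (x axis, each target group left of its control), with the total above each bar. Sall1 has the most peaks in 6 lists and as many as Sall4 in wild-type replicate 2 and parental replicate 2, and Sall2 has peaks in 3 lists, none of them a control list.

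The members differed widely in how many regions they held. Sall1 had 26 merged regions, Sall3 and Sall4 had 9 each and Sall2 had 3. The space searched also differed, since neighbouring genes limit it, and came to 117 kb for Sall1, 28.9 kb for Sall2, 86.5 kb for Sall3 and 71.9 kb for Sall4. Per 100 kb of that space there were 22.2 regions at Sall1, 10.4 at Sall2, 10.4 at Sall3 and 12.5 at Sall4. Of all 17169 genes with any region, 0.577% had as many regions as Sall1 or more, and 9.80% as many as Sall3 or Sall4. The gene span held 8 of the 9 regions of Sall3 and 5 of the 9 of Sall4, but 3 of the 26 of Sall1, whose regions lay mostly in the flanks.

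Common TET2 regions, with a peak in all 4 target lists and in no control list, numbered 5, with 2 at Sall3, 2 at Sall4, 1 at Sall1 and 0 at Sall2. They were 10.6% of the family's regions, against 5.70% of all merged regions. Of the 4 genes 3 were nearest a common region, against 17.3% of all genes with a region. Anti-TET2 specific regions, found in wild-type replicates 1 and 2 but not in a knockout list, numbered 15 (31.9%, against 14.0% of all regions), and all 4 genes had at least 1, against 40.8% of genes. Anti-FLAG specific regions, in both FLAG-TET2 lists and neither parental list, numbered 7 (14.9%, against 12.4%), at the same 3 genes as the common regions, against 30.7% of genes. Control regions, with a peak in at least 2 control lists, numbered 8 (17.0%, against 16.3%), at Sall1, Sall3 and Sall4, against 53.1% of genes. The anti-FLAG and control shares were near those of all regions. The shares of genes do not take the number of regions per gene into account, and Sall1, Sall3 and Sall4 had more regions than most genes. No test was made of these counts, since regions of 1 gene share their source.

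The counts rested on single lists. FLAG-TET2 replicate 2 was the list most often missing, and without it there were 10 common regions, with at least 1 at each of the 4 genes, and 30 anti-FLAG specific regions. Without wild-type replicate 2 there were 23 anti-TET2 specific regions. Leaving out a target list makes the rules of these classes looser. Shares over all regions and genes are not given for these settings, so these counts have no background. Control regions numbered 1 without parental replicate 1 and 2 without parental replicate 2. Of the 17 regions seen in a single list, 12 were in FLAG-TET2 replicate 1, the longest list.

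**Figure D2:**
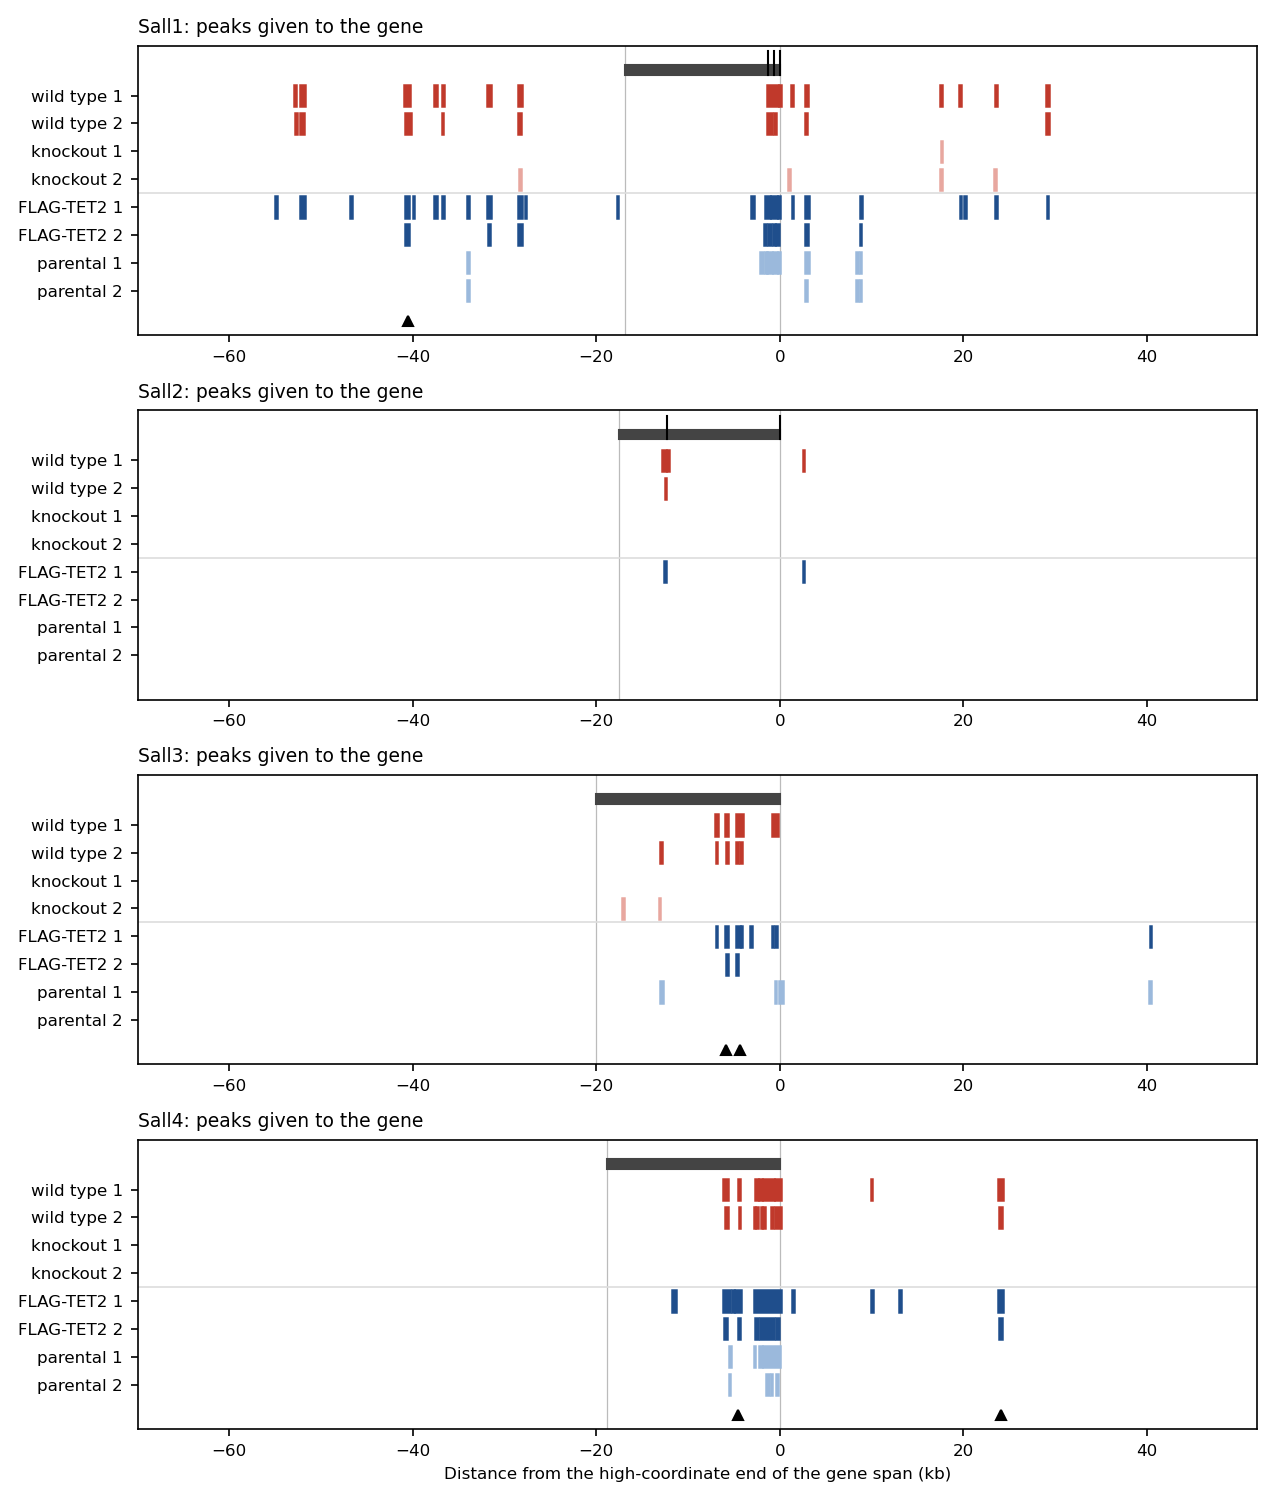
Peaks of the 8 lists (rows, each target group above its control) by distance from the high-coordinate end of each gene span (x axis, kb); outlines widen the narrowest peaks slightly so that they can be seen. The dark bar is the gene span, vertical ticks above it are annotated start sites where the promoter table has them, and triangles mark the 5 common regions, 3 of which lie in a gene span.

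Sall4, the ES cell factor of the family, had, like Sall2, no knockout peak within its search space. All its control peaks came from parental cells. Wild-type replicates 1 and 2 held 8 and 9 peaks there and FLAG-TET2 replicates 1 and 2 held 9 and 6, against 0 in each knockout list and 4 in each parental list. Target and control counts did not overlap, which held for 6.19% of all genes with a region. The whole knockout lists were the shorter antibody lists, at 2259 and 11696 peaks. The share of all genes without a knockout peak is not given. A common region in the gene span (chromosome 2, 168762337 to 168762911, mm10) had authors' fold enrichments of 7.32 and 5.92 for the wild-type pair, and of 13.2 and 10.5 for the FLAG-TET2 pair. A common region 23.74 kb beyond the high-coordinate end (168790943 to 168791561) had folds of 11.6 and 7.19 for the wild-type pair, and of 14.4 and 7.75 for the FLAG-TET2 pair. Both regions gave their highest fold in FLAG-TET2 replicate 1. The summits of the 4 target lists lay within 53 bp of each other in the region inside the gene and within 93 bp in the distal one. Over all 4521 common regions the median of this range was 53 bp.

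The high-coordinate end of Sall4 carried the widest region of the family, 2966 bp (168764352 to 168767317), which had peaks in all 4 target lists and in both parental lists. The strongest target peaks had summits at 168764697 and 168764741 for the wild-type pair, and at 168764675 and 168764685 for the FLAG-TET2 pair. They thus lay within 66 bp of each other, with folds of 13.4 and 9.68 for the wild-type pair, and of 9.74 and 10.5 for the FLAG-TET2 pair. In parental replicates 1 and 2 the strongest peaks had summits 1234 and 1199 bp away, at 168765925 and 168765890, with folds of 10.2 and 6.11. Parental replicate 1 also had 2 weaker peaks nearer the target summits, with a fold of 6.48 at 407 bp and a fold of 3.98 at 174 bp. Of the 1091 bp covered by peaks of all 4 target lists in this region, 238 bp had no control peak. At the neighbouring region inside the gene (168761010 to 168761830) the parental summits likewise lay beside the target ones, 423 and 400 bp away, and the 267 bp covered by all 4 target lists held no control peak. Merging whole peaks had placed target and parental summits in 1 region in both cases. With 200 bp windows around the summits, the region at 168761010 became a common region (168761072 to 168761451), which gave Sall4 3 common regions of 6 in the family. The region at the high-coordinate end gave no common region with these windows.

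At Sall3, a SALL factor of cranial nerve development in the mouse, the target peaks were concentrated in the gene span. Wild-type replicates 1 and 2 held 4 and 5 peaks, against 0 and 2 in knockout replicates. FLAG-TET2 replicates 1 and 2 held 8 and 2, against 4 and 0 in parental replicates. Counts overlapped in the FLAG arm and not in the antibody arm, where 36.6% of all genes with a region likewise had more peaks in each wild-type list than in either knockout list. In the FLAG arm the corresponding share of genes was 18.8%. Both whole wild-type lists were longer than either knockout list. The common region at chromosome 18, 80982234 to 80983055, had the highest folds of the 5, at 20.4 and 14.0 for the wild-type pair, and at 17.7 and 13 for the FLAG-TET2 pair. It held the family's leading peak of both wild-type lists, at within-list percentiles of 98.1 and 97.2 by -log10 q. Its strongest peaks had summits within 12 bp over the 4 target lists. The other common region (80980992 to 80981415) had folds of 7.13 and 5.69 for the wild-type pair, and of 10.5 and 5.45 for the FLAG-TET2 pair, with summits within 11 bp. Between the common regions and the low-coordinate end, a region at 80980003 to 80980284 was in both wild-type lists and FLAG-TET2 replicate 1 and in no control list. At the high-coordinate end (80986175 to 80986824), wild-type replicate 1 and FLAG-TET2 replicate 1 had folds of 6.27 and 5.99, against 5.04 in parental replicate 1. A second region at that end (80986948 to 80987379) had a peak in parental replicate 1 alone, with a fold of 7.35, above both of those target folds.

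Over the 5 common regions, the median fold was 7.32 and 6.55 for the wild-type pair, and 13.2 and 7.75 for the FLAG-TET2 pair. Over all common regions of the series the medians were 10.4 and 6.92 for the wild-type pair, and 11.9 and 7.19 for the FLAG-TET2 pair. The Sall3 region with folds of 20.4 and 14.0 lay above the 95th percentile of all common regions in both wild-type lists, at 19.2 and 12.3, and below it in both FLAG-TET2 lists, at 22.9 and 13.3. Folds are the authors' own, and percentiles were taken within a list. Folds of different lists are set side by side as values only, since depth was unknown.

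**Figure D3:**
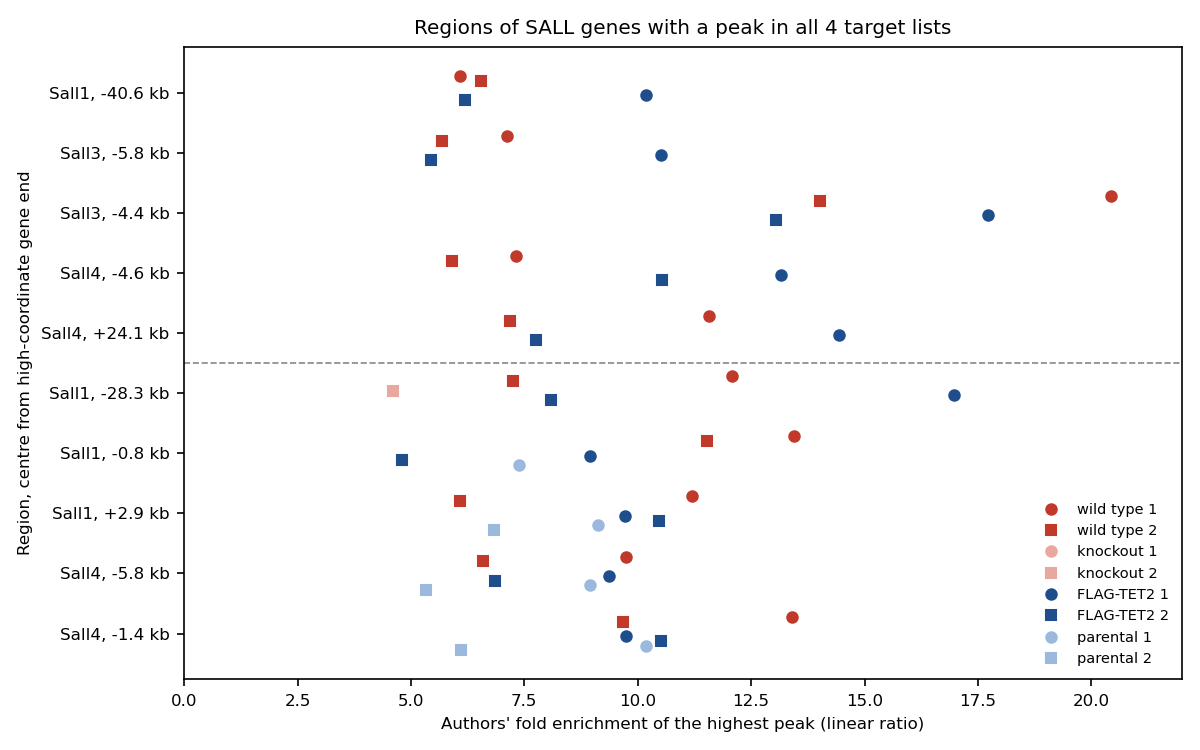
Authors' fold enrichment of the highest peak (x axis, linear ratio) in each list at the 10 SALL regions with a peak in all 4 target lists (rows, named by gene and distance of the centre from the high-coordinate end). The 5 rows above the dashed line are common regions, led by the Sall3 region at 20.4 in wild-type replicate 1, and the 5 below it also have control peaks, drawn in pale colours.

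Sall1 is needed for kidney development and is also expressed in ES cells. It had a broad spread of target peaks along the flank beyond its low-coordinate end, downstream by the strand in the promoter table. Of the 13 regions of this flank, 1 was common. FLAG-TET2 replicate 1, the longest list, was the only list at 7 Sall1 regions, several of them in this flank. Wild-type replicates 1 and 2 held 15 and 9 peaks at Sall1, against 1 and 4 in knockout replicates, and FLAG-TET2 replicates 23 and 9, against 9 and 4 in parental replicates. With the antibody the groups did not overlap, as for 36.6% of genes, and FLAG-TET2 replicate 2 equalled parental replicate 1. The common region (chromosome 8, 89003205 to 89003989), 23.25 kb from the gene, had folds of 6.08 and 6.55 for the wild-type pair, and of 10.2 and 6.18 for the FLAG-TET2 pair. The 4 summits lay within 36 bp. The region with the highest folds in this flank (89015576 to 89016109, 11.13 kb from the gene) was not a common one. Folds there were 12.1 and 7.25 in wild-type replicates, against 4.61 in knockout replicate 2, whose summit was 8 bp from the median of the target summits. In FLAG-TET2 replicates 1 and 2 it had folds of 17.0 and 8.08, against no parental peak. A region on the upstream side (89046851 to 89047298) was in all 4 target and both parental lists. Its folds were 11.2 and 6.09 in wild-type replicates, against no knockout peak, so it counted as an anti-TET2 specific region. They were 9.72 and 10.5 in FLAG-TET2 replicates, against 9.12 and 6.83 in parental replicates, whose summits were 18 and 54 bp from the target ones. In these 2 Sall1 regions the control summits lay at most 54 bp from the target ones, unlike the strongest parental summits at the Sall4 gene end.

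Sall1 and Sall2 have start sites in the promoter table, 3 and 2 in number, all on the minus strand. Windows of 300 bases, from 250 before to 50 after a start, are shown for 2 starts of each gene because they differ in CpG number, the substrate context of TET enzymes, and in peaks. Sequences are from RefSeq (GRCm38.p6), 5′ to 3′ on the minus strand, with CpG dinucleotides in capitals.
Sall1 start 1, chr8:89044113-89044412: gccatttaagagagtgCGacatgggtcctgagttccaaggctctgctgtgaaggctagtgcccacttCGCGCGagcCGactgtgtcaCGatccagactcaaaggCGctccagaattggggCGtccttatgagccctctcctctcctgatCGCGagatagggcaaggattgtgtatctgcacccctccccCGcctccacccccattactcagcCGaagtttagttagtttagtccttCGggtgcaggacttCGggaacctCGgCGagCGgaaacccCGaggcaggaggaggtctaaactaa
Sall1 start 3, chr8:89042813-89043112: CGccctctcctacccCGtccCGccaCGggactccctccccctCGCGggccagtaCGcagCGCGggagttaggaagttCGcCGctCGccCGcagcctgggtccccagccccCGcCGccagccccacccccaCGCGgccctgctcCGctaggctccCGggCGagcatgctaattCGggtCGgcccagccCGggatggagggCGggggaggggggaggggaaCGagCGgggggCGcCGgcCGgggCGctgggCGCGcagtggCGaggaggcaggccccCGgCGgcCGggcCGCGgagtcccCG
Sall2 start 1, chr14:52328621-52328920: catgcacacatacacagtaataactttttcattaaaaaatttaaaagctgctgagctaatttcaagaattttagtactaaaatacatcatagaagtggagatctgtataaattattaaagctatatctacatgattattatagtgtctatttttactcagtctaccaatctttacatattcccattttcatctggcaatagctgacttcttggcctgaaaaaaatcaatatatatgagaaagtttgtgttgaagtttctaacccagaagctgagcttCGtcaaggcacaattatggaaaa
Sall2 start 2, chr14:52316274-52316573: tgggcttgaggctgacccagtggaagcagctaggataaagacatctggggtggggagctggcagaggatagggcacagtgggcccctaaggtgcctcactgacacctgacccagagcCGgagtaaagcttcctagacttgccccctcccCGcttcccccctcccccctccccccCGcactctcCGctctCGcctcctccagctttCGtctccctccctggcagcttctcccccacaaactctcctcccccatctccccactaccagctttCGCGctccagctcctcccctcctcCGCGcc

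The Sall1 start sites, at 89044162, 89043512 and 89042862, fall in 1 merged region (89042485 to 89044283) at the high-coordinate end, which had a peak in all 4 target lists. Start 1 has 18 CpG, start 2 (89043463 to 89043762) has 27 and start 3 has 39, and 4.45% of all 32817 windows have as many as start 3 or more. The windows of starts 2 and 3 held a peak in all 4 target lists and in parental replicate 1, against none in parental replicate 2 or the knockout lists. Start 1 held one in wild-type replicate 1 and FLAG-TET2 replicate 1, against parental replicate 1 alone among the controls. Folds in the region were 13.4 and 11.5 in wild-type replicates, against no knockout peak. They were 8.95 and 4.79 in FLAG-TET2 replicates, against 7.38 in parental replicate 1. The antibody peaks there were thus limited to the wild-type lists, while the FLAG-TET2 folds lay on either side of the parental value. All 364 bp covered by the 4 target lists also had a parental peak.

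Sall2, a SALL factor with a role in eye development, had few peaks and none in a control list. Wild-type replicates 1 and 2 held 3 and 1 peaks, against 0 in each knockout list, and FLAG-TET2 replicates 2 and 0, against 0 in each parental list. With the antibody the groups did not overlap, as for 36.6% of all genes with a region. The window of start 2, inside the gene at -12.3 kb from its high-coordinate end and with 10 CpG, overlapped peaks of wild-type replicates 1 and 2 and of FLAG-TET2 replicate 1. A region reaching into the window (52315873 to 52316298) gave folds of 5.71 and 5.11 for the wild-type pair and 4.10 in FLAG-TET2 replicate 1. Their within-list percentiles were 32.9, 20.3 and 3.5. The wild-type replicate 1 peak of that region ended at 52316237, before the window. Its peak in the window was a separate region (52316374 to 52316590), seen in wild-type replicate 1 alone, with a fold of 4.72 at percentile 11.3. These were weak peaks within their lists, and FLAG-TET2 replicate 2 held none. The window of start 1, with 1 CpG and 30.3% G and C, held no peak in any list, and 14.1% of all windows have as few CpG. A further region 2.48 kb beyond the high-coordinate end (52331146 to 52331346) was in wild-type replicate 1 and FLAG-TET2 replicate 1 alone. The nearest other gene, Mettl3, begins 2.44 kb from the low-coordinate end.

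Across all windows of the promoter table, those with a peak in all 4 target lists made up 13%, and those found in both wild-type but in no knockout list 11.2%. Of the 5 Sall1 and Sall2 windows, 2 met the first criterion and 3 the second. Sall1 starts 2 and 3, which share 1 merged region, met both. In their bins, 25 to 29 and 30 to 67 CpG, the first criterion held for 35.4% and 42.5% of windows. The second held for 28.8% and 32.5% there. Sall2 start 2 met the second alone, in the bin of 10 to 14 CpG, where 10.5% of windows met it. Peaks went with CpG number in every list, controls included. Of windows with 30 to 67 CpG, the bin of Sall1 start 3, 85.4% and 60.5% held a peak in wild-type replicates 1 and 2, against 8.45% and 33.5% in knockout replicates. The shares were 86.5% and 56.8% in FLAG-TET2 replicates, against 67.1% and 22.7% in parental replicates. Of windows with 0 or 1 CpG, the bin of Sall2 start 1, 0.841% and 0.431% held a peak in wild-type replicates, against 0 and 0.0647% in knockout replicates. Whether CpG number accounts for the peaks at the Sall1 starts was not tested.

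**Figure D4:**
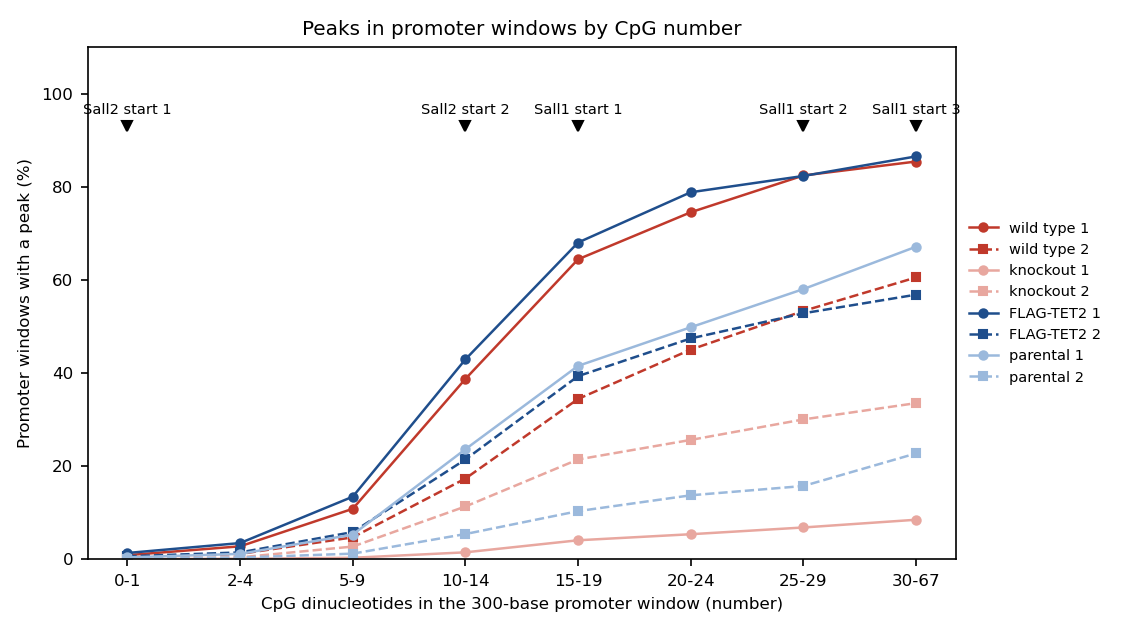
Share of promoter windows with a peak (y axis, %) by the number of CpG dinucleotides in the window (x axis, bins) in each of the 8 lists. Arrowheads mark the bins of the 5 Sall1 and Sall2 windows; all curves rise with CpG number, from at most 1.31% in the lowest bin to between 8.45% and 86.5% in the highest.

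Peaks in control lists were described by reagent. At 6 regions (12.8%, against 27.2% of all merged regions), 4 of Sall1 and 2 of Sall3, the FLAG resin gave a parental peak and no antibody list had one, and 2 of the 6 were seen in a single list. An example is the Sall1 region at 89010061 to 89010307, with a fold of 10.7 in FLAG-TET2 replicate 1, against 10.4 and 6.57 in parental replicates 1 and 2. The Sall1 region at 89052848 to 89053132 had folds of 5.97 and 7.68 in FLAG-TET2 replicates, against 5.77 and 5.73 in parental replicates. At 3 regions (6.38%, against 5.76% of all merged regions), 2 of Sall1 and 1 of Sall3, the TET2 antibody gave a knockout peak and no FLAG resin list had one, and 2 of the 3 were seen in knockout replicate 2 alone. One of these lay at the high-coordinate end of Sall1 (89045095 to 89045233, fold 5.06). The region in several lists (Sall1, 89061635 to 89061883) had a fold of 7.64 in wild-type replicate 1, against 5.72 and 9.28 in knockout replicates 1 and 2. It gave the leading SALL peak of knockout replicate 2 and the only SALL peak of knockout replicate 1. Control peaks of other kinds included the Sall1 region at 89067547 to 89067835, with folds of 8.25 in wild-type replicate 1 and 6.61 in FLAG-TET2 replicate 1, against 5.37 in knockout replicate 2. The Sall3 region at 80973846 to 80974238 had a fold of 4.90 in wild-type replicate 2, against 5.20 in knockout replicate 2 and 4.95 in parental replicate 1. Regions with both wild-type and FLAG-TET2 peaks and no control peak numbered 16 (34.0%, against 19.1% of all merged regions), 8 of them at Sall1, 2 at Sall2, 3 at Sall3 and 3 at Sall4. No test was made of these shares. The low-coordinate end of Sall1 (89026384 to 89026547) had a peak in FLAG-TET2 replicate 1 alone, with a fold of 5.94.

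Genes that work with SALL factors were read from lists chosen with earlier results of these data known. Of 13 NuRD subunit genes, 3 (23.1%) were nearest a common region, namely Hdac1, a deacetylase, Rbbp7, a histone-binding subunit, and Gatad2a, a scaffold subunit. Of 12 pluripotency factors that act with SALL4, 7 (58.3%) were, namely Pou5f1, Sox2, Esrrb, Klf5, Prdm14, Zfp281 and Tfcp2l1. Of 8 genes under SALL factors in limb, heart and kidney development 2 (25.0%) were, Fgf10, a growth factor of limb buds, and Eya1, a kidney and ear factor. The share among all genes with a region, whatever their number of regions, was 17.3%. Near control regions the counts were 10 of 13, 9 of 12 and 2 of 8, against 53.1% of all genes.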

How the data were processed

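ChIP-seq peak lists of 8 immunoprecipitations were used; 2 further libraries (input and IgG) were not analysed here. Of upstream software, Bowtie2, Trimmomatic, DESeq2, DiffBind and MACS2 are listed by the submitters' processing notes, with build mm10 and no versions or roles. The deposited lists are per library and give, per peak, the authors' score (-log10 q scaled and cut to a whole number), a fold enrichment (linear ratio) at the summit, and the −log10 p and q values. The lowest -log10 q in any list was 2.01. Neither reads nor depth were given, so peak number mixes occupancy with depth.

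Peaks on the 21 assembled chromosomes were merged where they shared 1 bp, with Python 3.11.15 and pandas 2.3.3. Peaks and regions went to every protein-coding span of GRCm38.p6 (the mm10 assembly) they overlapped, else to the nearest within 50 kb. Promoter windows came from a RefSeq table, which held 2 of the 4 members. Region classes are described by counts beside the share over all regions and genes. Peak numbers were compared with two-sided exact permutation tests, labels permuted within antibody (36 arrangements). The steps were tested on simulated data.

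Members, gene lists and classes were chosen with earlier results of these data known. Regions named were taken from the common regions, those at a gene end and those in at least 3 lists, not all of which are named; the Sall2 region beyond its high-coordinate end was named after its values were seen. Base-level coverage, summit distances, CpG bins and shares of presence patterns were added after seeing the data. Alternatives were a stricter -log10 q, summit windows, shortened lists, other distances, other controls, a replicate block and each list left out.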

Additional observations from a re-analysis of the deposited data

How the results depend on the processing

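The difference in peak number near SALL genes stayed positive under all 16 alternatives, with 1.56 to 2.46 on the log2 scale when a list was left out, but was 0.58 (exact permutation p = 0.333), and 0 in the FLAG arm, with all lists shortened to 2259 peaks. With a replicate block it was 2.01 (exact permutation p = 0.125, the smallest 16 arrangements allow), and the share of a list differed by 0.0276 points (p = 0.25). The labels do not say that a number pairs libraries; replicate differences in peaks per gene correlated at -0.0658 between wild type and knockout and 0.267 between FLAG-TET2 and parental, across genes. The share difference was 0.0152 to 0.04 points when a list was left out, but in the FLAG arm alone it fell below 0 with a -log10 q of at least 5 (-0.00183 points), within 10 kb (-0.0132), with any gene within 50 kb (-0.00208), without FLAG-TET2 replicate 1 (-0.00261) and without parental replicate 1 (-0.0159).

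Common regions numbered 5 to 10, anti-TET2 specific 15 to 23, anti-FLAG specific 7 to 30 and control regions 1 to 8 when a list was left out. With lists shortened to 2259 peaks they numbered 0, 2, 0 and 1, and fewer peaks were then compared. Within 10 kb there were 3 common, 9 anti-TET2 specific and 3 anti-FLAG specific regions, since fewer regions are searched. With the replicate block, which asks for 1 pair only, there were 19, 25 and 31, and 9 common regions when controls were knockout alone. Shares over all regions are not given for these settings. Unknown depth limits all these counts: a missing peak is not shown to be an absent site.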

Other observations

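Sall3 and Sall4 lie in like neighbourhoods, beside Atp9b and Nfatc1 and beside Atp9a and Nfatc2, paralogous gene pairs. The Atp9 and Nfatc neighbours held no common region, and 17.3% of all genes with a region were nearest one. Common regions were 5.70% of all merged regions. Atp9a had 11 merged regions and Atp9b 1, of which 0 were common. Nfatc2 had 11 and Nfatc1 had 6, again with 0 common regions, while Sall4 and Sall3 had 2 common regions each among 9. On the other side of Sall4, Zfp64, a zinc finger gene 126 kb away, had 29 merged regions and 3 common ones. At Sall2, the neighbours Mettl3, Tox4, Rab2b and Chd8 had 1, 5, 2 and 5 regions, and 0 common ones each. These genes were chosen as neighbours from the gene table, and the counts are given with no test.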
